A study of Mus musculus with 12 samples.

Results

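The mu class of glutathione S-transferases was followed in gonadal somatic cells of mouse fetuses at embryonic day 11.5. Its 7 mouse genes, Gstm1 to Gstm7, were found through the accession that the array gives each probe, 7 of the 18749 genes named on the array. They have 8 of its 41174 probes, 2 for Gstm1 and 1 for each other gene, each treated separately. The family was chosen with values of these data known, since Gstm2 had been seen to be lower in both sexes of mutants and Gstm6 to be higher in males among the controls. The values behind that choice are described here without a test. The question was whether the rest of the cluster moves with these genes.

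Embryos came in 4 groups of 3, formed by sex and by the Jmjd1a genotype. Controls were heterozygous and mutants homozygous for a mutant allele of Jmjd1a, now named Kdm3a, the gene of an enzyme that removes methyl groups from lysine 9 of histone H3. The controls therefore carry 1 copy of the mutant allele too, and no wild-type embryo was part of the design. All embryos carried a CD271 transgene under Nr5a1, a gene of gonadal somatic and adrenal cells, and cells bearing CD271 were captured with magnetic beads from dissociated gonads and mesonephroi. Each array held the RNA of 1 embryo, and the sources used here give neither strain nor litter.

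Cytosolic glutathione S-transferases join the tripeptide glutathione to reactive electrophiles, such as products of lipid oxidation and many drugs, and so make them soluble and ready for export. The mu class works as dimers, and its genes lie side by side as products of tandem duplication. Several of them are known targets of NRF2, the transcription factor of the response to oxidants and electrophiles.

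In RefSeq's GRCm38.p6 the genes follow each other on chromosome 3 in the order Gstm5, Gstm7, Gstm6, Gstm3, Gstm2, Gstm1, Gstm4. Gstm5 is on the plus strand and the other 6 are on the minus strand. RefSeq's promoter table gave 12 windows for the 7 genes, each running from 250 bases before to 50 bases after a transcription start. The windows printed below are those of the 2 genes whose values stood out, Gstm2 and Gstm6, and that of Gstm5, the gene on the opposite strand. CpG dinucleotides, the sites of DNA methylation, are in capitals. The Gstm2 window is chr3:107986371-107986670 on the minus strand. For Gstm6, which has 3 windows, the one of the start farthest upstream is shown, chr3:107953417-107953716 on the minus strand. The Gstm5 window is chr3:107895604-107895903 on the plus strand.
Gstm2: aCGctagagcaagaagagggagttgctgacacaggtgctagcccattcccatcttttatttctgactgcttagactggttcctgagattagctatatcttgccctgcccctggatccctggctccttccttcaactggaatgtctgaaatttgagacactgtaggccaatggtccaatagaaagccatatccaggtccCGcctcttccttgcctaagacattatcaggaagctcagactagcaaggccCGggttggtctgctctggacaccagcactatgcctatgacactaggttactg
Gstm6: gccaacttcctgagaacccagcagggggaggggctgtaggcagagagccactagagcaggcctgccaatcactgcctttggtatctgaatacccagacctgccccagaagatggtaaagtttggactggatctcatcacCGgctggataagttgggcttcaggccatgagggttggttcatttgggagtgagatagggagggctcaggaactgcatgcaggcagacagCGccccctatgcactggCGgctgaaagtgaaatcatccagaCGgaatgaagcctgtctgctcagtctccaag
Gstm5: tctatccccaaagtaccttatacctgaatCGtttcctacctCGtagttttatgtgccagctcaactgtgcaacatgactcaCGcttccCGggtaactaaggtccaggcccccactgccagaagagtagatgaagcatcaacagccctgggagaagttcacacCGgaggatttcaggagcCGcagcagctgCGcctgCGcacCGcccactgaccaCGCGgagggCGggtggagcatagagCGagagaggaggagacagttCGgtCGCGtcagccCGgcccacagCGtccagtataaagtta

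The Gstm2 window holds 3 CpG dinucleotides, and 31.4% of all 32851 promoter windows in the table hold that many or fewer. The printed Gstm6 window holds 4, a count that 38.0% of all windows do not exceed, and the 3 Gstm6 windows range from 4 to 9. Gstm5 has the most in the family with 18, a number reached by 29.7% of all windows, against a median of 7. Between these lie Gstm3 with 5, Gstm7 with 6 and 9, Gstm1 with 8 and 14 and Gstm4 with 14 in both of its windows. The motif TGACNNNGC, the core of the antioxidant response element bound by NRF2, was searched on both strands and occurs in 2 of the 12 windows, 1 each of Gstm5 and Gstm7, against 12.4% of all windows. AAGGTCA, a site bound by NR5A1, occurs in 0 of 12, against 4.7% of all. AACAAT, a core bound by SOX proteins, occurs in 2 of 12, both of Gstm7, against 10.7% of all. Read on the other strand, AAGGTCA opens with TGAC, the letters that also open TGACNNNGC. A match describes the letters of a window and not a bound site.

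All 8 Gstm probes were well above background on all 12 arrays, and none was saturated. Levels are given as log2 of the processed signal minus the log2 75th percentile of the same array, so a level of 0 equals that percentile. Levels are not compared between probes, because probes differ in brightness for the same amount of RNA. Probe sequences were not used here, and mu-class transcripts are alike, so how far a probe also binds the RNA of another family member was not tested. The array pools all captured cells of an embryo, so fewer cells that express a gene and less RNA per cell cannot be told apart.

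The array files and the labels were checked first. The brighter Kdm3a probe was at 2.89 ± 0.0735 (SD, n = 3) in control females and 0.62 ± 0.165 in mutant females, at 2.86 ± 0.165 in control males and 0.91 ± 0.183 in mutant males. In the second Kdm3a probe all 6 controls and 0 of the 6 mutants were well above background. All 7 gonadal somatic markers (Nr5a1, Wt1, Gata4, Lhx9, Emx2, Nr0b1 and Cbx2) were well above background on every array. Brightness differed between arrays, with a 75th percentile of 142.9 to 220.7 in control males, 175.3 to 220.8 in mutant males, 188.7 to 280.0 in control females and 268.3 to 299.5 in mutant females. Arrays lay on 3 slides of 4. One slide carried all control males and mutant male 1, another carried control females 1 and 2 beside mutant males 2 and 3, and the last carried the mutant females and control female 3.

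Gstm2 separated the genotypes in both sexes. Its level was 6.20, 6.32 and 6.15 in the 3 control males, while the 3 mutant males had 5.02, 5.16 and 5.06. Control females had 5.88, 5.80 and 5.50, and mutant females 4.77, 4.91 and 4.91. Every mutant embryo of either sex was below every control embryo of either sex, and within each genotype all males were above all females. The difference between genotypes was −1.14 ± 0.121 (log2, standard error of the limma fit) in males, a 2.21-fold lower level, and −0.86 ± 0.121 in females, a 1.82-fold lower level. On the slide that held mutant male 1 and the 3 control males the difference was −1.20, and on the slide with the 3 mutant females and control female 3 it was −0.64.

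Gstm6 was high in 1 group of the 4. Control males had levels of 0.01, 0.17 and −0.19, and mutant males had −1.41, −1.32 and −1.50. Control females had −1.43, −1.04 and −1.42, and mutant females −1.89, −1.64 and −1.76. The control males thus stood above all 9 other embryos, and the mutant males overlapped the control females. The difference between control males and control females was 1.30 ± 0.143, or 2.46-fold, and the difference between mutant and control males was −1.41 ± 0.143, or 2.65-fold lower. Both differences rest on the same 3 control males. In females the difference between genotypes was −0.47 ± 0.143, with no overlap of the groups.

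**Figure D1:**
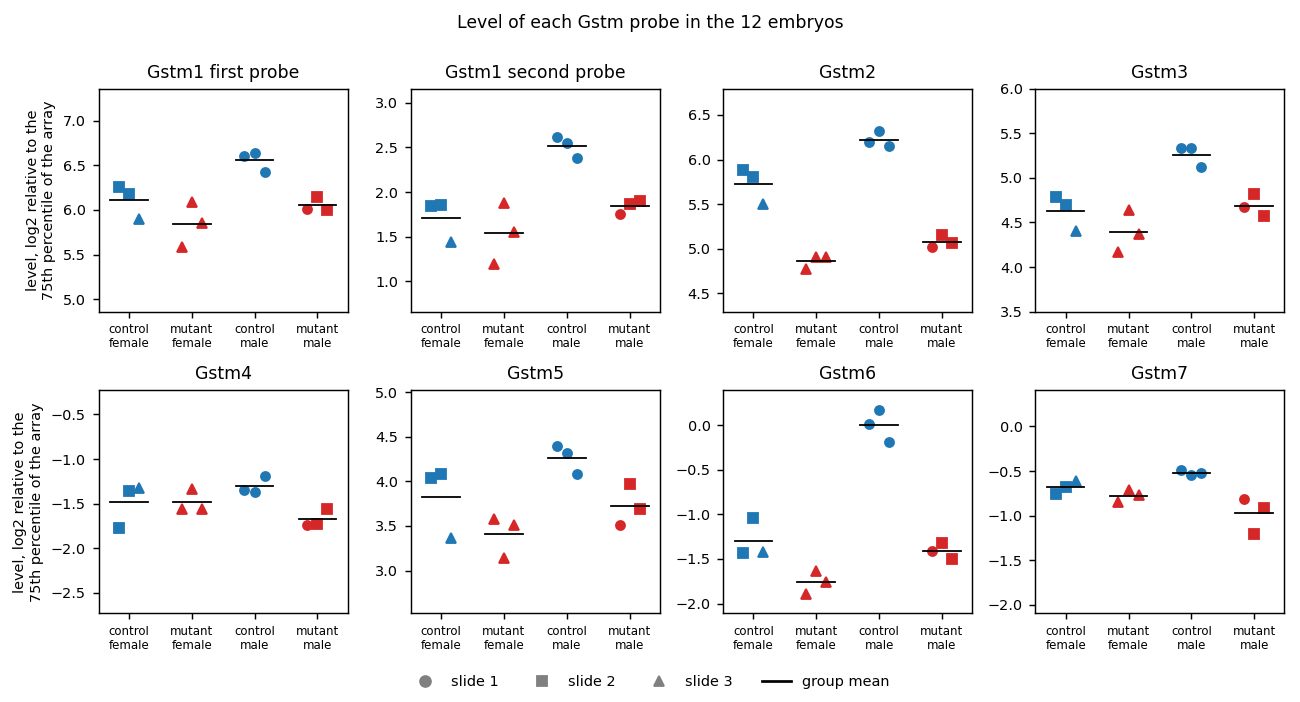
Each panel shows 1 Gstm probe, with the log2 level relative to the array's 75th percentile on the vertical axis and the 4 groups on the horizontal axis; a point is 1 embryo (blue for controls, red for mutants, its symbol the slide) and a bar the mean of a group. Gstm2 separates the genotypes in both sexes (control males 6.15 to 6.32, mutant males 5.02 to 5.16), and Gstm6 is high in control males alone (−0.19 to 0.17, against −1.89 to −1.04 in the other groups).

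The other 5 genes, with 6 probes, were lower in mutant than in control males, and none of the 6 probes passed the threshold. Gstm1, a major enzyme of the class, had levels of 6.61, 6.64 and 6.43 in the control males by its first probe, while mutant males had 6.01, 6.15 and 6.0. This is a difference of −0.51 ± 0.149 with a 95% confidence interval from −0.84 to −0.18 (limma, adjusted p = 0.258). Its second probe gave −0.67 ± 0.176 (limma, adjusted p = 0.198), so both probes of the gene pointed the same way. Gstm3 was at 5.33, 5.33 and 5.12 in the control group, while mutant males had 4.67, 4.82 and 4.57, a difference of −0.57 ± 0.152 (limma, adjusted p = 0.207). In each of these 3 probes the lowest control male was above the highest mutant male.

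The remaining genes showed smaller or less even differences in males. Gstm5 had levels of 4.40, 4.32 and 4.08 in controls, against 3.51, 3.97 and 3.69 in mutants, a difference of −0.54 ± 0.210 (limma, adjusted p = 0.388). Gstm7 had −0.49, −0.54 and −0.52 in controls, against −0.81, −1.20 and −0.91 in mutants, a difference of −0.45 ± 0.118 (limma, adjusted p = 0.194). Gstm4 had the smallest difference of the family, −0.37 ± 0.139, with levels of −1.35, −1.37 and −1.19 in controls against −1.74, −1.73 and −1.56 in mutants (limma, adjusted p = 0.381). Each of these 3 probes also had groups without overlap. On the slide shared by the control males and mutant male 1, the 6 probes of these 5 genes differed by −0.29 (Gstm7) to −0.76 (Gstm1 second probe).

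Of the 6 probes of these 5 genes, 6 were lower in mutant males and 6 had groups that did not overlap, while 55.7% of all tested probes were lower and 12.1% had groups that did not overlap in that direction. A probe passed the threshold where its Benjamini-Hochberg adjusted p over 25816 tested probes was below 0.05. By that rule 2 of the 8 Gstm probes passed, Gstm2 and Gstm6, against 0.329% of all tested probes called lower; Gstm2 was chosen on this contrast and Gstm6 on the same control males, so nothing is read from that count. Over the 6 probes of the other genes, 0 passed in limma and 6 had an unadjusted p under 0.05, a level that 11.6% of all probes reached. The median difference of these 6 probes was −0.52, beside −0.05 over all tested probes. The medians and counts of the 6 leave out Gstm2 and Gstm6, whose values chose the family. They come from the same embryos, however, and some of the 6 probes ran with Gstm2. After the group means were taken off, Gstm2 had a Pearson r of 0.827 with the first Gstm1 probe and 0.816 with Gstm3. With Gstm4 and Gstm7 it had −0.525 and −0.447. The 6 probes are thus not independent members, and here and below their counts are not free of the choice and carry no test.

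In females 5 of the 6 probes of the other genes were lower in mutants, with a median of −0.20, beside 56.9% of all probes lower and a median of −0.05. Besides Gstm2, the probes lay between −0.47 for Gstm6 and 0.00 for Gstm4, and groups were free of overlap for Gstm2 and Gstm6 but for none of the other 6 probes, with 7.37% of all probes free of overlap in the lower direction. Gstm1 had 6.26, 6.18 and 5.90 in controls by its first probe, against 5.58, 6.09 and 5.85 in mutants, a difference of −0.27 with an interval from −0.60 to 0.06 (limma, adjusted p = 0.479). Its second probe gave −0.18 with an interval from −0.57 to 0.21 (limma, adjusted p = 0.616). Gstm3 gave −0.23 with an interval from −0.57 to 0.10 (limma, adjusted p = 0.504). The groups overlapped for all 3 of these probes.

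Gstm5 differed by −0.42 in females, with an interval from −0.88 to 0.04 (limma, adjusted p = 0.471). Gstm7 differed by −0.09, from −0.35 to 0.17 (limma, adjusted p = 0.696), and Gstm4 by 0.00, from −0.30 to 0.31 (limma, adjusted p = 0.999). Of the 8 probes, 1 passed the threshold in females, Gstm2, which chose the family, beside 0.291% of all probes called lower. With slide as a block Gstm2 differed by −0.64 in females and did not pass, and the count is 0. Without control female 1 or 2, or without mutant female 1 or 3, it is 0 as well. Against control female 3 on the same slide, the 3 mutant females differed by −0.05 for the first Gstm1 probe, 0.10 for the second, −0.01 for Gstm3, 0.05 for Gstm5, −0.16 for Gstm4, −0.16 for Gstm7 and −0.34 for Gstm6. Control female 3 had the lowest level of the 3 control females for Gstm1, Gstm2, Gstm3 and Gstm5.

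Averaged over the sexes, 6 of the 6 probes of the other genes were lower in mutants, beside 56.8% of all probes. Of all 8 Gstm probes 2 passed, again Gstm2 at −1.0 and Gstm6 at −0.94, beside 0.806% of all probes called lower. Both genes chose the family. With slide as a block 1 of 8 passed, Gstm2 at −0.92, and Gstm6 at −0.87 did not. Among the others the mean difference ran from −0.48 for Gstm5 (limma, adjusted p = 0.158) to −0.19 for Gstm4 (limma, adjusted p = 0.254), with Gstm1 at −0.39 and −0.43, Gstm3 at −0.40 and Gstm7 at −0.27. Without control female 3 the number of probes that passed was 6, and 23.8% of all probes on the array then passed as well. The difference of the mutant effects between the sexes was below 0 for 6 of the 6 probes of the other genes, beside 48.3% of all probes. It ran from −0.12 for Gstm5 to −0.50 for the second Gstm1 probe, and a negative sign means a lower value in males than in females. Gstm2 and Gstm6, which chose the family, were at −0.28 and −0.94. None of the 8 passed in limma, nor did any of the 25816 probes tested, of which 996 or 3.86% had an unadjusted p under 0.05. A difference between the sexes in the mutant effect was therefore not shown for the family.

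**Figure D2:**
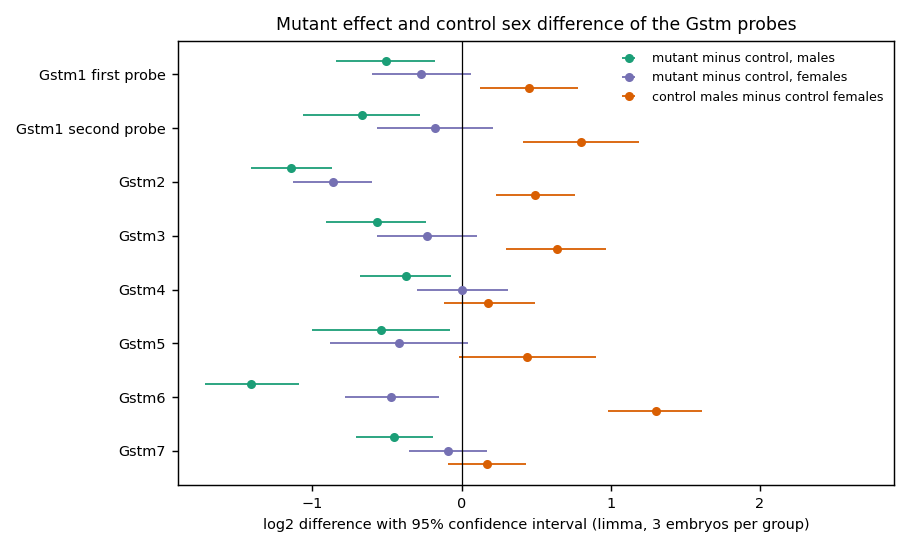
The horizontal axis gives log2 differences with 95% confidence intervals from limma (3 embryos per group) for each of the 8 Gstm probes, listed on the vertical axis; colours mark the mutant effect in males, in females and the difference of control males over control females. Leaving out Gstm2 and Gstm6, which chose the family, the male mutant effects lie below 0 for 6 of 6 probes, from −0.67 (Gstm1 second probe) to −0.37 (Gstm4). The control sex differences of these 6 lie above 0, from 0.17 (Gstm7) to 0.80 (Gstm1 second probe). Gstm6 is at −1.41 and 1.30.

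Between control males and control females, 6 of the 6 probes of the other genes were higher in males, with a median of 0.44. Over all probes 43.7% were lower and the median was 0.04. Of all 8 Gstm probes 1 passed, Gstm6, beside 0.0813% of all probes called higher, and Gstm6 was chosen on this contrast. No slide held both control males and control females, so within the controls slide and sex cannot be told apart. With slide as a block, which then rests on the mutants to link the slides, Gstm6 differed by 1.23 and 0 of 8 probes passed. Besides Gstm6, the groups did not overlap for 5 of 7 probes, all but Gstm4 and Gstm5, against 10.1% of all probes in that direction. Gstm2 was 0.49 ± 0.121 higher in control males (limma, adjusted p = 0.229). Gstm3 was 0.64 ± 0.152 higher (limma, adjusted p = 0.207), and Gstm1 0.45 ± 0.149 and 0.80 ± 0.176 higher by its 2 probes (limma, adjusted p = 0.395 and 0.168). Gstm5 was 0.44 ± 0.210 higher (limma, adjusted p = 0.468). Gstm4 and Gstm7 differed by 0.18 and 0.17, with intervals of −0.12 to 0.49 and −0.09 to 0.43. This comparison and the mutant effect in males share the 3 control males, so their values are not independent of each other.

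Between mutant males and mutant females 0 of 8 probes passed in limma, while 1 of 8 had an unadjusted p under 0.05. Of all probes, 0.108% passed and 12.7% had an unadjusted p under 0.05. Gstm6, whose choice did not rest on this contrast, was 0.36 ± 0.143 higher in mutant males, with an interval from 0.04 to 0.67 (limma, adjusted p = 0.357), and its groups did not overlap. Gstm2 was 0.22 ± 0.121 higher, with an interval from −0.05 to 0.48 (limma, adjusted p = 0.450), again without overlap, as for Gstm4 in the lower direction. This makes 2 of 8 probes higher without overlap, against 15.2% of all probes, and 1 of 8 lower, against 9.16%. The other probes lay between −0.19 for Gstm4 and for Gstm7 and 0.32 for Gstm5. No slide held both mutant males and mutant females, so within the mutants, too, slide and sex cannot be told apart. With slide as a block, which then rests on the controls to link the slides, Gstm6 differed by 0.17 and Gstm2 by −0.09. With no scaling between arrays they differed by −0.16 and −0.31.

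The order of the 4 groups differed between members. For all probes but those of Gstm4 and Gstm5 the 3 control males were above the 9 other embryos. The other 3 groups had means of 6.11, 6.05 and 5.84 by the first Gstm1 probe in control females, mutant males and mutant females, and 4.62, 4.69 and 4.39 for Gstm3. For Gstm2 the order was control males, control females, mutant males and mutant females, at means of 6.22, 5.73, 5.08 and 4.86, with no overlap between neighbours. For Gstm5 the means followed the same order, at 4.27, 3.83, 3.73 and 3.41, but neighbouring groups overlapped. Gstm4 and Gstm7 were lowest in mutant males, at means of −1.68 and −0.97.

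Across the 12 arrays some members ran closely together, given here as description, since all arrays share the group structure and the scaling. The first Gstm1 probe and Gstm3 had a Pearson r of 0.984 over the 12 arrays and 0.982 after the group means were taken off. The 2 Gstm1 probes had 0.967 and 0.946. Gstm2 had 0.877 and 0.827 with the first Gstm1 probe and 0.824 and 0.677 with Gstm5. Gstm6 had 0.932 with Gstm3, and 0.627 within groups. Gstm4 and Gstm7 were nearest to each other, at 0.753 and 0.406, while Gstm4 had 0.355 and −0.22 with the first Gstm1 probe. Other pairs ran more strongly in opposite ways within groups. Gstm5 had 0.28 and −0.677 with Gstm7 and 0.115 and −0.591 with Gstm4. Gstm2 had 0.464 and −0.525 with Gstm4 and 0.675 and −0.447 with Gstm7.

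Brightness differed between the groups, and its part in the Gstm values was not tested beyond the fits given here. With array brightness as a covariate, Gstm2 differed by −1.08 between genotypes in males and −0.77 in females, and Gstm6 by −1.37 in males and by 1.22 between control males and control females. In that fit the control sex differences were smaller for Gstm1 (0.25 and 0.61), Gstm2 (0.35), Gstm3 (0.42) and Gstm5 (0.11), and larger for Gstm4 (0.41) and Gstm7 (0.26). With no scaling between arrays, an alternative chosen after the data were examined, they were 0.86 for Gstm6, 0.06 for Gstm2, 0.01 and 0.36 for Gstm1, 0.20 for Gstm3, 0.00 for Gstm5, −0.25 for Gstm4 and −0.27 for Gstm7, while the median of all probes was −0.39. The Gstm2 difference between genotypes was then −0.95 in males and −0.59 in females, with medians of all probes at 0.14 and 0.22.

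**Figure D3:**
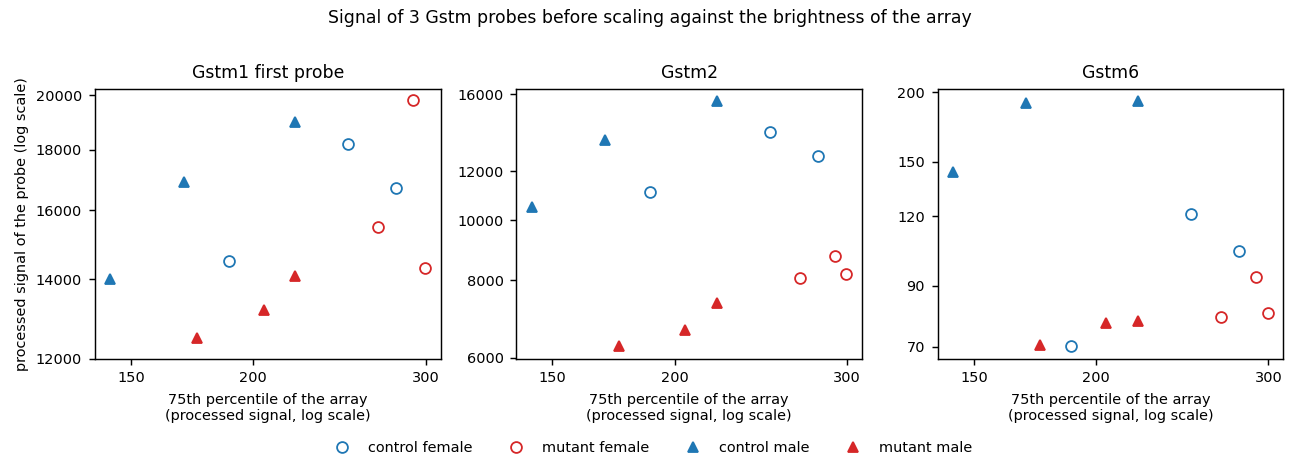
Each panel sets the processed signal of 1 Gstm probe before any scaling (vertical, log scale) against the 75th percentile of its array (horizontal, log scale), with 1 point per embryo, colour for genotype and symbol for sex. For Gstm2 all 6 mutants lie below all 6 controls without scaling, while for the first Gstm1 probe the unscaled signals of control males and control females overlap.

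Markers of other cell types that the capture could hold were read beside these values. Of 7 steroidogenic and adrenal markers 6 were tested (Star, Cyp11a1, Hsd3b1, Mc2r, Mrap and Akr1b7), since Cyp21a1 was not well above background on all arrays of any group. These 6 were lower in mutants in both sexes, with median differences of −0.47 in males and −0.64 in females. Averaged over the sexes 1 passed, Star, the carrier of cholesterol into mitochondria, at −0.60 (limma, adjusted p = 0.0229), beside 0.806% of all probes called lower. Whether the Star call holds with slide as a block or without single arrays was not examined. The log2 of the summed level of the 6 markers was 2.47 to 2.70 in control males, 1.90 to 2.38 in mutant males, 1.99 to 2.44 in control females and 1.57 to 1.80 in mutant females. The summed level was thus lower in mutants of each sex without overlap, as for Gstm2. Control females and mutant males overlapped in it, which they did not for Gstm2. Single markers were less even between the sexes, with 2 of 6 lower in males among controls and 2 of 6 among mutants. The part of these markers in the Gstm2 and Gstm6 differences was not tested.

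Markers of mesonephric epithelium ran the other way in males. The log2 summed level of the 8 markers was −0.09 to 0.12 in control males and 0.89 to 1.43 in mutant males, with 8 of 8 higher and 0 past the threshold in limma (4 at an unadjusted p under 0.05, a level that 11.6% of all probes reached). In females it was 0.50 to 0.66 in controls and 0.26 to 1.37 in mutants, with 4 of 8 higher. For endothelial (6 of 6 tested), erythroid (5 of 6), macrophage (3 of 6) and germ cell (3 of 6) markers, the ranges of the summed level overlapped between the genotypes in both sexes. Germ cell markers were higher in mutants in 3 of 3 in each sex, with medians of 0.16 in males and 0.92 in females, where 2 of 3 had an unadjusted p under 0.05. Erythroid markers were higher in 5 of 5 in each sex, with medians of 0.40 and 0.12. Endothelial markers were higher in 5 of 6 in males and lower in 5 of 6 in females, with medians of 0.60 and −0.52, and macrophage markers were higher in 3 of 3 in males and 1 of 3 in females. The gonadal somatic markers were higher in 6 of 7 in males and 7 of 7 in females, with medians of 0.19 and 0.28. None of these markers passed in limma in either sex (at an unadjusted p under 0.05 there was 1 in males, a germ cell marker, and the 2 germ cell markers in females), and their part in the Gstm values was not tested. Among those not tested were Cx3cr1, Ptprc, Cd68, Dazl, Kit and Nanog.

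Genes beside the cluster were read to see whether the low values extend along the chromosome. Of the 10 nearest protein-coding genes on each side, 13 of 20 were tested, and their median difference was 0.21 in males and 0.18 in females, on the other side of 0 from the family. Of the 3 nearest on the Gstm5 side, Eps8l3 was not tested, Csf1, the growth factor of macrophages, differed by 0.27 in males and 0.45 in females, and Ahcyl1, a relative of adenosylhomocysteinase, by 0.06 and 0.37. On the Gstm4 side Ampd2, an AMP deaminase, differed by 0.37 and 0.35, and Gm12500 and Gnat2 were not tested. None of these 3 passed the threshold in either sex.

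Of the 13 tested neighbours 1 passed averaged over the sexes, Slc16a4, which is gene 10 before Gstm5 and a member of the monocarboxylate transporter family, beside 0.895% of all probes called in either direction. Its brighter probe was at −0.73, −0.48 and −1.18 in control males, while mutant males had −2.28, −1.60 and −1.91. Control females had −1.53, −1.44 and −1.86, while mutant females had −2.43, −2.34 and −2.18. By this probe the groups did not overlap in either sex, beside 12.1% of all probes in males and 7.37% in females in the lower direction. The mean difference was −0.92 ± 0.149 (limma, adjusted p = 0.0136). It did not pass with slide as a block (−0.97, limma, adjusted p = 0.0909), with brightness as a covariate (−0.75), with no scaling (−0.69) or without control female 2 (−0.88). The dimmer probe of Slc16a4 was not well above background on all arrays of any group and was not tested. By that probe control female 3, at −5.16, was below mutant female 2, at −5.11, while the male groups did not overlap. None of the genes tested between Slc16a4 and the cluster passed.

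**Figure D4:**
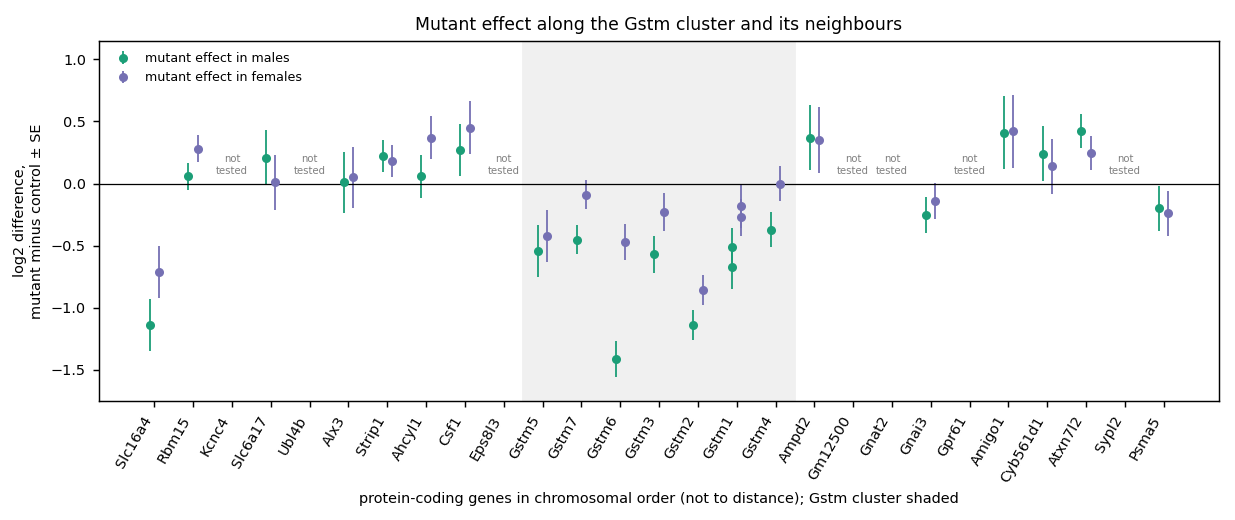
The horizontal axis lists the protein-coding genes around the Gstm cluster in chromosomal order, not to distance, with the cluster shaded; the vertical axis gives the log2 difference of mutants minus controls with its standard error, in males and in females (3 embryos per group). The male values of the family lie between −1.41 and −0.37, and among the 13 tested neighbours the lowest is Slc16a4 at −1.14 and the highest Atxn7l2 at 0.42.

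The wider glutathione system was read from 6 lists with 71 genes outside the mu class, of which 60 were tested. In males 38 of 60 were lower in mutants, with a median of −0.13, and 0 passed in limma (12 at an unadjusted p under 0.05). Over all probes 55.7% were lower, the median was −0.05, 0.329% passed as lower and 11.6% had an unadjusted p under 0.05. In females 40 of 60 were lower, with a median of −0.08, and 1 passed, beside 56.9% lower and 0.291% called lower over all probes. Averaged over the sexes 39 of 60 were lower, with a median of −0.08, and 3 passed, all lower, beside 56.8% lower and 0.806% called lower over all probes. The sex differences gave 0 of 60 past the threshold in limma in controls (9 at an unadjusted p under 0.05, against 10.8% of all probes) and 0 in mutants (10 at that level, against 12.7%).

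Among the other glutathione S-transferases, which join glutathione to other sets of substrates, 9 of 16 were tested and none passed in limma. The 3 with the smallest p averaged over the sexes were Gstt2 at −0.36, Gstz1, which also breaks down tyrosine, at −0.23, and Gsta4, which handles the lipid aldehyde 4-hydroxynonenal, at −0.29. Gsta4 was −0.53 lower in males and −0.06 in females. The membrane-associated MAPEG family holds glutathione transferases, and in Alox5ap and Ptges also proteins of leukotriene and prostaglandin E synthesis. Its members were lower in both sexes in 5 of 5 tested, and 1 passed averaged over the sexes, beside the 0.806% of all probes given above. Mgst2 had a mean difference of −0.63 ± 0.123 (limma, adjusted p = 0.0413), from means of 0.05 in control males and −0.37 in mutant males, and −0.02 in control females and −0.86 in mutant females. Mgst1 and Mgst3 differed by −0.31 and −0.32 and did not pass.

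The 17 genes of glutathione synthesis, recycling and breakdown were all tested, with 8 lower and 9 higher averaged over the sexes. Dpep1, a dipeptidase that splits the cysteinyl-glycine left from glutathione, passed at −0.51 ± 0.103 (limma, adjusted p = 0.0487). Ggct, γ-glutamylcyclotransferase, differed by −0.38 (limma, adjusted p = 0.0638), and Ggt6, a γ-glutamyltransferase family member, by −0.96 (limma, adjusted p = 0.0610). Slc7a11, the cystine importer that feeds glutathione synthesis, passed in females at −0.81 ± 0.133 (limma, adjusted p = 0.0335). Control females had levels of −1.87, −1.92 and −1.84, while mutant females had −2.66, −2.84 and −2.56. Male controls had −2.47, −2.71 and −2.83, and male mutants −2.87, −2.55 and −2.61. By this brighter probe the control females were thus above the other 9 embryos, a different order of groups from that of any Gstm probe. By the dimmer tested probe of the gene, mutant male 3 at −4.31 was above control females 2 and 3, at −4.33 and −4.42. Outside the control females only mutant male 3 was well above background for that dimmer probe. The difference of the Slc7a11 mutant effects between the sexes did not pass, as for all probes.

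The list of glutathione peroxidases, which also holds the peroxiredoxin Prdx6, had 7 of 9 genes tested. These were lower in 7 of 7 in both sexes, by medians of −0.24 in males and −0.08 in females. In limma 0 passed (0 at an unadjusted p under 0.05 in either sex). Gpx8, Gpx4 and Gpx1 differed by −0.25, −0.23 and −0.16 averaged over the sexes. Of the 16 genes of the NRF2 pathway and its targets, 10 were lower and 6 higher averaged over the sexes. Nqo1, a quinone reductase and standard NRF2 target, passed at −0.51 ± 0.102 (limma, adjusted p = 0.0483), with levels of −0.23, −0.28 and −0.37 in control males against −1.17, −0.70 and −0.77 in mutants of that sex. Among females, controls had −0.55, −0.71 and −0.76, against −1.29, −1.09 and −0.94 in mutants. Cbr3, a carbonyl reductase, differed by −0.42 and Pgd, of the pentose phosphate pathway, by 0.27, and neither passed. The exporters of glutathione conjugates were tested in 6 of 7 genes, with 3 lower and 3 higher and none past the threshold in limma (1 at an unadjusted p under 0.05), among them Abcc3 at −0.20 and Abcc4 at 0.39.

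The 4 calls in these lists were close to the threshold. With slide as a block none of them passed in limma, with adjusted p = 0.379 for Mgst2, 0.104 for Nqo1, 0.302 for Dpep1 and 0.267 for Slc7a11. Of the 12 fits that leave out an array, Mgst2 and Nqo1 passed only without control female 3 and without mutant male 2, and Dpep1 only without control female 2 and without control female 3. Slc7a11 passed without control male 1 or 3 and without mutant male 1 or 2, and in none of the other 8.

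Among the named genes outside the family whose levels ran most like those of Gstm2 over the 12 arrays were Cst11, a cystatin, with a Pearson r of 0.974, Ifi27l2a, an interferon-induced gene, with 0.973, Ctnnal1 with 0.972 and Myl9, a myosin light chain, with 0.963. Their differences between genotypes were larger or smaller than that of Gstm2: Cst11 was at −1.44 in males and −0.93 in females, and Ctnnal1 at −0.47 and −0.30. For Gstm6 they were Akr1b8, an aldo-keto reductase, with 0.982, Rnase1, a secreted ribonuclease, with 0.962, Cst9, a cystatin, with 0.958, Fxyd6 with 0.956 and Cftr, a chloride channel, with 0.949. Rnase1 had a control sex difference of 3.71 and a mutant effect of −3.53 in males. Slc16a4, the neighbour described above, was number 10 in this order with 0.936. These r values were picked as the highest over all named genes on 12 arrays that share groups, scaling and slides, so they carry no test.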

How the data were processed

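RNA of 12 single embryos was amplified linearly, labelled with Cy3 and hybridised to one-colour Agilent arrays, per the labels' protocols. Signals came from Feature Extraction 10.5.1.1 on design 014868, built on mm9, per the file headers. As intensity, the deposited files hold a background-subtracted processed signal, linear and not scaled between arrays. From it, log2 minus the array's 75th percentile over 43379 spots that are not controls was computed, spots of a probe were averaged, and 41174 probes were left. Accessions were named through a RefSeq table of GRCm38.p6, which matched 27479 probes and served for names and gene order. Promoter windows came from RefSeq, GRCm38.p6.

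Probes entered the test if some group had all 3 of its arrays well above background. Group means over all 12 arrays were fitted per probe in limma 3.58.1 under R 4.3.3, with Benjamini-Hochberg adjustment over 25816 probes at 0.05. The fit was also run on simulated data with independent noise. Those data held no slide or brightness effect, so the run says nothing about either. The p-values measure the spread between single embryos within groups and do not account for slide. Each slide was scanned once, so slide and scan are 1 batch. The number of arrays limits the precision.

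The members and lists were chosen with earlier results of these data known. Named were every Gstm probe, Kdm3a, genes of each glutathione list past the threshold in a contrast and the 3 with the smallest p averaged over the sexes (the brightest probe stood for a gene), the 3 nearest neighbours on each side and any of the 10 nearest past the threshold, and the 5 genes with the highest correlation with Gstm2 and with Gstm6. Some genes that this rule names are left out here. Star, Atxn7l2 and the place of Slc16a4 in the order for Gstm6 were named after their values were seen. Alternatives were quantile normalization, normexp background correction with an offset of 50, other filters on dim probes, 1 probe per gene, a fit of the compared groups alone, slide or replicate number as a block, array weights, brightness as a covariate, and leaving out each array; no scaling between arrays was added after the data were examined.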

Additional observations from a re-analysis of the deposited data

How the results depend on the processing

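The number of Gstm probes past the threshold was 2 in males, 1 in females, 2 averaged over the sexes, 1 between control sexes, 0 between mutant sexes and 0 for the difference of the mutant effects. With array weights, whose estimation did not converge fully, the first 4 became 7, 6, 8 and 5, while 20.1%, 43.0%, 56.0% and 6.46% of all probes passed. With no scaling between arrays they became 0, 0, 1 and 0. With slide as a block the count was 0 in females, 1 averaged over the sexes and 0 between control sexes, and with only the groups compared it was 0 in females and 0 between control sexes. Leaving out 1 array gave 2 to 2 in males, 0 to 1 in females, 2 to 6 averaged over the sexes, 1 to 1 between control sexes and 0 to 0 in the other comparisons. Quantile normalization, normexp, the other filters and 1 probe per gene moved none of these counts by more than 1.5 times. The arrays whose absence changed a count are named beside it in the text.

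Signs turned for uncalled probes only. With no scaling they turned in females for the first Gstm1 probe (0.00), the second (0.10), Gstm3 (0.04) and Gstm7 (0.18), averaged over the sexes for Gstm4 (0.05), between control sexes for Gstm4 (−0.25) and Gstm7 (−0.27), and between mutant sexes for Gstm1 (−0.31 and −0.22), Gstm2 (−0.31), Gstm3 (−0.23), Gstm5 (−0.21) and Gstm6 (−0.16). With slide as a block they turned in females for the second Gstm1 probe (0.10), Gstm5 (0.05) and Gstm4 (−0.16), between control sexes for Gstm7 (−0.04), and between mutant sexes for Gstm1 (−0.09 and −0.06), Gstm2 (−0.09), Gstm3 (−0.03), Gstm4 (0.08) and Gstm5 (−0.27). With brightness as a covariate they turned between mutant sexes for the first Gstm1 probe (−0.02), Gstm4 (0.08) and Gstm5 (−0.08), and in females for Gstm4 (−0.14). Gstm4 also turned with normexp (−0.04 in females, 0.01 between mutant sexes), with array weights (−0.12 in females), without control female 1 (−0.14) and without mutant female 2 (−0.07). For the difference of the mutant effects, Gstm5 ran from −0.26 to 0.11 over the fits that leave out an array, and turned without control female 3. The cause was not tested.

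Replicate numbers do not pair the arrays: deviations of arrays with the same number correlated from −0.31 to 0.22 for number 1, −0.51 to 0.33 for number 2 and −0.54 to 0.43 for number 3. With the replicate number as a block the counts were 2, 1, 2, 1, 0 and 0.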
